A study of Mus musculus with 19 samples.

Results

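Tumour-specific CD8 T cells recovered late from malignant liver lesions were compared with cells of the same receptor recovered early, in 6 of the 19 RNA-seq libraries of the series. All 6 libraries came from C57BL/6 mice and from CD8 T cells carrying the transgenic T cell receptor TCR SV40-I, whose target is large T antigen, an oncoprotein of the virus SV40. The 3 late libraries held CD8 and Thy1.1 positive cells of days 20 to 21. The 3 early libraries held CD8 and Thy1.1 positive cells of days 8 to 9 that were also sorted for high surface PD1, LAG3 and CD39 (PD1hi/LAG3hi/CD39hi). The 6 libraries were picked by these labels, and no measured value entered that rule. Earlier results of these data were known when the libraries and the gene lists were chosen. The late cells carried no gate on PD1, LAG3 and CD39 in their labels, so the day and the gate cannot be told apart. Levels of 3 further groups of 3 libraries are given for reference: naive SV40-I cells (CD44low), early SV40-I cells of days 8 to 9 with low PD1, LAG3 and CD39 (early marker-low), and OT-I cells (marked by Ly5.1), which carry a receptor for ovalbumin, of days 20 to 21 from the same kind of lesion. The labels give the source of every library as splenocytes while the titles of the late and early groups name liver lesions. No label gives a genotype, but the count tables carry the letters WT in a column heading for the early marker-high libraries and KO for the early marker-low ones. What these letters mark, how the lesions were induced and whether animals were pooled is not stated in the sources used here.

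CD8 T cells that meet antigen without clearing it pass from an activated, dividing state into a dysfunctional or exhausted one. In that state they keep inhibitory receptors such as PD1 at the surface, make little cytokine and depend on the nuclear factor TOX, while the transcription factor TCF1 (Tcf7) marks cells that can still renew. The comparison asks how the transcriptome of the marker-high cells seen in the first days resembles that of cells which had stayed in the lesion for longer.

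The 6 libraries held 38830547 to 54195918 counts in genes. Values below are counts scaled to library size by TMM (CPM, the usual unit for RNA-seq counts), given for libraries 1, 2 and 3 of each group in that order, and fold changes are log2 values of late minus early with their standard error (SE). All 6 expressed the CD8 T cell markers: Cd3e was at 5889, 6302 and 7719 CPM late and 2572, 2516 and 2809 CPM early. Early library 3 stood apart from the other 2 early libraries: its root-mean-square log2 difference was 1.45 and 1.38 from them, against 1.15 between them and 1.5 from late library 3. The late libraries were further apart, at 1.51 to 1.86 from one another, with late library 1 the most distant from the other 5. Cd200r2, a CD200 receptor family gene, was at 11.5, 5.04 and 1178 CPM in the early libraries and at 609, 513 and 791 CPM in the late ones. Transcripts of other cells also differed. The macrophage list of 13 genes summed to 6043, 4045 and 4776 CPM in the early libraries and to 61.7, 1094 and 913 CPM in the late ones. All 13 had a log2 fold change below 0, 3 of them were called lower (Cd68, Marco and Cd14), and the Kupffer cell marker Clec4f was at 1.56, 3.09 and 1.76 CPM late and 177, 44.5 and 30.9 CPM early. The hepatocyte list of 18 genes was highest in late library 2, at 1765 summed CPM against 70.2 and 94.1 in the other late libraries and 622, 292 and 399.6 in the early ones. Gene by gene, 16 of the 18 had a log2 fold change above 0 and 2 below (median 5.21). The late libraries lay above all early ones for 7 of them and below for 2. The main fit called 0 of the 18, while DESeq2 called 13 higher and 0 lower. Erythroid and platelet transcripts were highest in early library 3, at 1395 summed CPM. The part of these transcripts in the results was not tested beyond the fits with such a covariate given beside them. In bulk RNA, fewer cells of a type and less RNA per cell cannot be told apart.

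Of 16404 genes tested, 289 were called higher late (1.76%) and 585 lower (3.57%) at an adjusted p under 0.05, 5.33% in either direction, and the median log2 fold change of all genes was 0.04. The late libraries lay above all early libraries for 2026 genes (12.4%) and below them for 2456 (15%). Among 23 gene lists of T cell biology, those with the most members called lower were cell cycle (22 of 34), naive and memory (8 of 18), glycolysis (6 of 16) and interferon (4 of 19), while the 7 members called higher were 4 genes of T cell identity and 1 each of the cytotoxic, NK-type receptor and signalling lists. A fit of only the 6 libraries called 61 genes higher and 264 lower, and leaving out early library 3 called 772 higher and 897 lower. With the macrophage list's summed level as a covariate, which itself does not overlap between late and early libraries, 37 genes were called higher and 117 lower. Of 44 called genes that a fixed rule names, 21 kept their call without any 1 of the 6 libraries: Plk1, Aurka, Uhrf1, Eed, Pclaf, Ska1, Id3, Slamf6, Lair1, Nr4a1, Gpr183, Ier3, Oasl2, Tlr1, Rap1gap2 and Ly6c2 among those lower, and Cd3e, Klrb1c, Peg13, Phf1 and Nckap5l among those higher. The other 23 lost it without at least 1 library, and for most of them the libraries are given below. With the macrophage covariate, 12 of the 44 kept their call (Plk1, Aurka, Uhrf1, Pclaf, Ska1, Lair1, Tlr1, Rap1gap2, Atp5b, Cd3e, Peg13 and Nckap5l), and the other 32 had adjusted p-values of 0.065 to 0.38. A call lost in that fit did not always go with a smaller log2 fold change. Some changed little or grew, as in Btla (-3.33 to -3.35) and Mybl2 (-5.33 to -6.11). Others shrank, as in Ccl9 (-3.06 to -1.21) and Ly6i (-5.51 to -3.17). In the fit of the 6 libraries Tnfrsf25 was filtered out and not tested. Of the other called genes 25 lost their call there, among them Eed, Id3, Slamf6, Gpr183, Ier3 and Phf1.

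**Figure D1:**
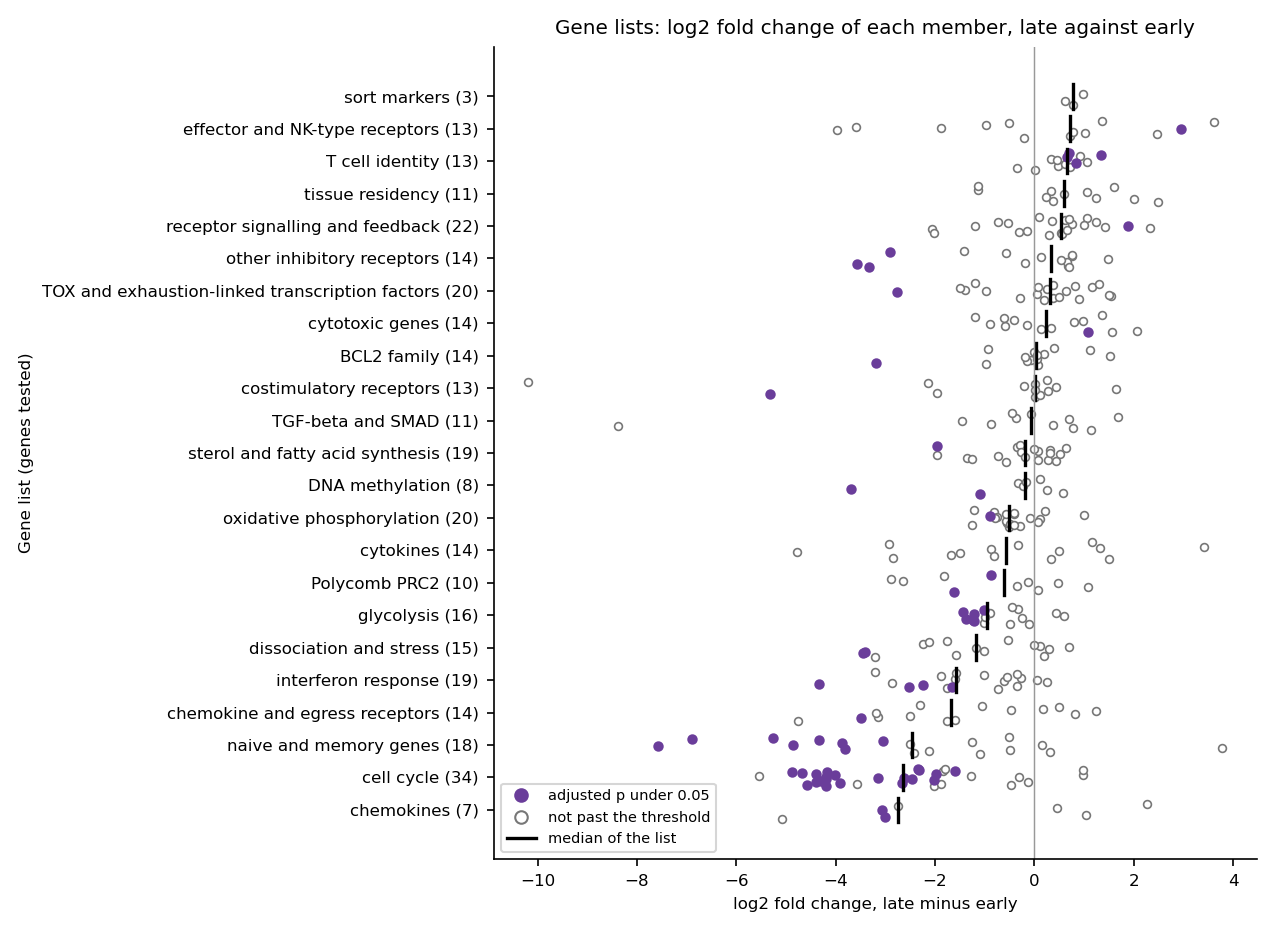
Log2 fold change, late minus early, of every tested member of the 23 gene lists, 1 point per gene, filled where the adjusted p was under 0.05, with the median of each list as a bar. The 22 filled points of the cell cycle list and the 8 of the naive and memory list all lie below 0, while the 4 filled points of the T cell identity list lie above it.

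Genes of DNA replication and mitosis were lower late than early. Of the 34 cell cycle genes tested, 22 fell, none rose, and 12 did not pass the test; 3.57% of all genes were called lower. The median log2 fold change of the list was -2.65, against 0.04 over all genes, and the late libraries lay below all early libraries for 28 of the 34 genes, against 15% of all genes. The summed level of the list was 1972, 1283 and 1435 CPM late and 10720, 11990 and 6601 CPM early.

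The kinases and cyclins that drive entry into mitosis fell strongly. Plk1, a mitotic kinase, was at 23.1, 14.4 and 24.8 CPM in the late libraries and at 461, 502 and 221 CPM in the early ones (-4.25 ± 0.34, adjusted p = 5.25e-05, 19-fold lower). Aurka, the centrosomal Aurora kinase, was at 10.7, 11.3 and 15.3 CPM late and 269, 300.4 and 115 CPM early (-4.19 ± 0.33, adjusted p = 5.25e-05). Cdk1, the kinase partner of the B-type cyclins, was at 11.4, 14.2 and 17.5 CPM late and 301, 371 and 120.2 CPM early (-4.20 ± 0.48, adjusted p = 4.67e-04). In each of these genes every late library lay far below every early one, and early library 3 held the lowest early value. The cyclin genes Ccnb1 (-4.40 ± 0.51, adjusted p = 4.70e-04) and Ccnb2 (-4.30 ± 0.44, adjusted p = 2.54e-04) fell by similar amounts. Cdc20, which activates the anaphase-promoting complex, was at 19, 12.1 and 14.6 CPM late and 275, 296 and 118 CPM early (-3.91 ± 0.34, adjusted p = 9.46e-05). Ccna2, Aurkb, Birc5 (survivin), the checkpoint kinase gene Bub1b, the kinesin gene Kif20a and the spindle gene Tpx2 also fell, with log2 fold changes from -4.67 to -3.16.

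The list also held genes that license and copy DNA. Of the 6 genes of the MCM helicase, which unwinds DNA for replication, 5 passed the test. Mcm5 was at 338, 163 and 164 CPM late and 1702, 1569 and 941 CPM early (-2.66 ± 0.33, adjusted p = 6.69e-04), and Mcm6, the least changed of the 5, at 329.8, 123 and 92.6 CPM late and 579, 654 and 427 CPM early (-1.60 ± 0.41, adjusted p = 0.0401). The sixth, Mcm4, was at 36.3, 40.5 and 76.6 CPM late and 99.2, 160.5 and 113 CPM early (adjusted p = 0.0874). Rrm2, the regulated subunit of ribonucleotide reductase, was at 25.7, 26.3 and 24.4 CPM late and 480.1, 609 and 305 CPM early (-4.19 ± 0.41, adjusted p = 1.77e-04), and its partner Rrm1 fell by 2.33 on the log2 scale. Pcna, the sliding clamp of DNA polymerase, fell less (-1.98 ± 0.32, adjusted p = 0.00328), as did the thymidylate synthase gene Tyms (-2.47 ± 0.39, adjusted p = 0.00323). Cdc6, which loads the MCM helicase, was at 5.83, 4.63 and 7.46 CPM late and 229, 196 and 102 CPM early (-4.88 ± 1.05, adjusted p = 0.0176).

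The 12 members that did not pass included proliferation markers at low levels and inhibitors of the cycle. Mki67, the gene of the Ki-67 protein, was at 1.09, 1.2 and 0 CPM late and 0.628, 1.26 and 1.29 CPM early, with overlapping groups (adjusted p = 0.899). Top2a was at 1.39, 6.39 and 7.97 CPM late and 14.3, 25.2 and 18.5 CPM early (adjusted p = 0.151), without overlap. Of the inhibitors of cyclin-dependent kinases, Cdkn1b was at 5.91, 12.7 and 20.4 CPM late and 4.65, 5.62 and 9.63 CPM early, and Cdkn2c at 32.1, 36.6 and 47.8 and 8.82, 8.68 and 41.7 CPM. Both had a fold change above 0 that did not pass (adjusted p = 0.20 and 0.31), and early library 3 lay within or near the late values in both.

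Set beside the reference groups, the summed level of the list in the late libraries overlapped that in naive cells (1539, 1168 and 1439 CPM) and in late OT-I cells (1767, 1580 and 1893 CPM). The mean of Plk1 was 20.8 CPM late, 2.97 in naive cells, 15.5 in late OT-I cells, 150.4 in early marker-low cells and 395 in the early marker-high cells. Against the early marker-low cells, Plk1 was also lower late (-2.86, adjusted p = 2.80e-04), and so were Aurka (-2.56, adjusted p = 4.01e-04) and Rrm2 (-3.37, adjusted p = 3.40e-04). That comparison, which shares the late libraries with the first, called 886 genes higher late (5.4%) and 1132 lower (6.9%); the marker-low libraries are those with the letters KO, so the letters, the gate and the day cannot be told apart there. The count of 22 was 23 without early library 3, 19 to 22 without any other 1 of the 6 libraries, 21 in a fit of the 6 libraries and 15 with the macrophage list as a covariate.

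**Figure D2:**
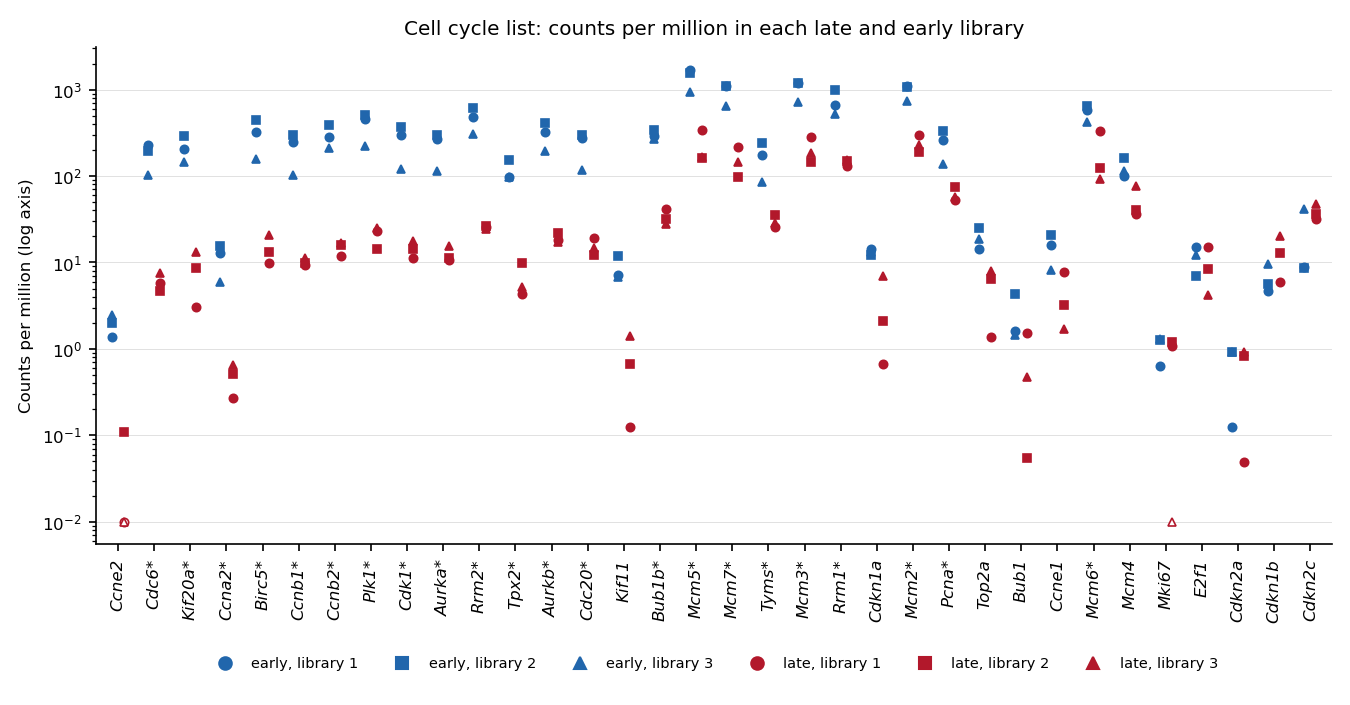
CPM (log axis) of the 34 tested cell cycle genes in each late (red) and early (blue) library, ordered by log2 fold change; an asterisk marks an adjusted p under 0.05 and an open symbol a count of 0, drawn at the bottom. From Ccne2 to Mcm4, except for Bub1, the red points lie below all blue ones, and early library 3 (blue triangles) is often the lowest early library.

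The stretches upstream of these genes were examined because their members moved together. RefSeq promoters (GRCm38.p6) were matched for 18 of the 22 cell cycle genes called lower, and the 250 bases before the start site were searched on both strands for 3 motifs known from cell cycle promoters: the CHR element (TTTGAA, or TTCAAA on the other strand), the CCAAT box (CCAAT or ATTGG) and an E2F-like site (TTTNNCGC or GCGNNAAA). The promoters of 5 of them are shown for genes whose values are given above, 5′ to 3′ along the gene's own strand, with these motifs in capitals; where 2 E2F-like matches overlap, as in Mcm6, they form 1 run of capitals. They are chr10:69352913-69353162 (minus strand), chr4:118437344-118437593 (minus), chr7:122159185-122159434 (plus), chr9:70421555-70421804 (minus) and chr1:128359706-128359955 (minus), each ending at the base before the annotated start and so outside the transcript.
Cdk1: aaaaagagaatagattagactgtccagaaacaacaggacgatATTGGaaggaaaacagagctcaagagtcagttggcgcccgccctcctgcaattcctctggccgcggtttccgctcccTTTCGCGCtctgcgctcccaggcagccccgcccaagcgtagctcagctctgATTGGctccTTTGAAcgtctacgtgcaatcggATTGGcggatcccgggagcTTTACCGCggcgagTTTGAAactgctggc
Cdc20: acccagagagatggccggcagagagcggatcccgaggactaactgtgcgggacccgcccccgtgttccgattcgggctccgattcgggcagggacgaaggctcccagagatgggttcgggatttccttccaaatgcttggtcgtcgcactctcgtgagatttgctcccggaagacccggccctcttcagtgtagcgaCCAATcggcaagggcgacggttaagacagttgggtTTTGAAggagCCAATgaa
Plk1: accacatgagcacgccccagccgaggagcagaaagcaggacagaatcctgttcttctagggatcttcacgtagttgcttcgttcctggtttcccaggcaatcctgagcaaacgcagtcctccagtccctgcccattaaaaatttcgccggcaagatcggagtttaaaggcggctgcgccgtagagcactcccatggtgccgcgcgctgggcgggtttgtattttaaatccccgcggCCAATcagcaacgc
Ccnb2: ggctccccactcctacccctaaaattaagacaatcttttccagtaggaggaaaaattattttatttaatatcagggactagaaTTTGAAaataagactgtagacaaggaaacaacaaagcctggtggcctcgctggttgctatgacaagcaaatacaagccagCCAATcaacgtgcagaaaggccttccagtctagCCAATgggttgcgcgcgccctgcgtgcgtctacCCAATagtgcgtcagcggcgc
Mcm6: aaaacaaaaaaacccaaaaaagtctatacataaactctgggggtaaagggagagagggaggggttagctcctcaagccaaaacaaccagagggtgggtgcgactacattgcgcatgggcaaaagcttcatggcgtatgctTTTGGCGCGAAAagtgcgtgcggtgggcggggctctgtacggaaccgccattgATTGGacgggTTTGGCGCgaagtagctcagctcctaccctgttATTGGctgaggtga
Cdk1 holds all 3 motifs, Cdc20 and Ccnb2 a CHR element with CCAAT boxes, Plk1 a CCAAT box near its start, and Mcm6 E2F-like matches beside its CCAAT boxes. A CCAAT box was found in 15 of the 18 promoters (83.3%), in 5 of the 10 matched promoters of the cell cycle genes not called (50%) and in 36.4% of the 9866 promoters of all genes tested. The E2F-like match was found in 5 of the 18 (27.8%), in 1 of the 10 not called (10%) and in 6.96% of all. The CHR element was found in 4 of the 18 (22.2%), in 3 of the 10 not called (30%) and in 10.7% of all. In the naive and memory genes called lower, 1 of 6 matched promoters held a CCAAT box, and in the glycolysis genes called lower 2 of 6. A match is a description of letters in the window and not a binding site.

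Genes that maintain DNA methylation through replication were lower late. Uhrf1, which brings the maintenance methyltransferase to newly copied DNA, was at 44.7, 30.5 and 30.9 CPM late and 536, 535 and 302 CPM early (-3.69 ± 0.32, adjusted p = 9.46e-05), without overlap. Dnmt1, that methyltransferase, was at 174, 187 and 217 CPM late and 312, 471 and 448 CPM early (-1.09 ± 0.24, adjusted p = 0.0222). These were the 2 members called of 8 tested in the DNA methylation list (median -0.20), where 3.57% of all genes were called lower. The de novo methyltransferase gene Dnmt3a was at 13.7, 16.5 and 14.2 CPM late and 21.9, 16.4 and 17.3 CPM early (adjusted p = 0.673). Of 10 genes of the Polycomb complex PRC2, Eed, a core subunit, fell (-1.61 ± 0.29, adjusted p = 0.00732), as did the histone chaperone gene Rbbp7 (-0.87 ± 0.17, adjusted p = 0.0107). Ezh2, the catalytic subunit, was at 1.09, 2.79 and 2.84 CPM late and 8.62, 10.5 and 4.56 CPM early (adjusted p = 0.083). The Polycomb-associated gene Phf1, which is not in this list, went the other way (2.47 ± 0.41, adjusted p = 0.00453) and is given below with its other fits. The calls of Dnmt1, Eed and Rbbp7 were lost with the macrophage covariate (adjusted p = 0.223, 0.101 and 0.103), while that of Uhrf1 was kept under each of the 19 alternatives run, with adjusted p-values up to 0.0451. Dnmt1 also lost its call without any 1 late library or early library 2 (adjusted p 0.0579 to 0.105), and Rbbp7 without late library 3 or early library 2 (adjusted p 0.0593 to 0.0602).

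Glycolytic enzymes were lower late than in early libraries 1 and 2, and less so than in early library 3. Of 16 glycolysis genes tested, 6 fell and none rose, with a median log2 fold change of -0.95, where 3.57% of all genes were called lower. Ldha, the lactate dehydrogenase subunit, was at 1835, 1855 and 1814 CPM late and 6372, 6259 and 2328 CPM early (-1.44 ± 0.31, adjusted p = 0.0172, 2.72-fold lower). Tpi1, the triose phosphate isomerase, was at 388, 439 and 453 CPM late and 1390, 1325 and 588 CPM early (-1.37 ± 0.28, adjusted p = 0.0133). The late libraries lay close together in both genes, and early library 3 lay far nearer to them than to the other 2 early libraries. Gapdh, Pgk1, Pgam1 and Pkm, which act between these enzymes in the pathway, also fell, by 1.01 to 1.23 on the log2 scale. The glucose transporter gene Slc2a1 was at 159.8, 101 and 127 CPM late and 178, 140.3 and 101 CPM early, and the hexokinase gene Hk1 at 892, 761 and 765 and 425, 394 and 790.4 CPM; neither passed (adjusted p = 0.84 and 0.212). None of the 16 was called in a fit of the 6 libraries, with the macrophage covariate or without any 1 of the libraries other than early library 3, and 8 were called lower and 1 higher without early library 3. The adjusted p of Ldha was 0.0553 to 0.0887 and that of Tpi1 0.0501 to 0.0682 in those fits that left out 1 other library.

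Other biosynthetic and respiratory genes gave few calls, where 3.57% of all genes were called lower. Atp5b, the beta subunit of the mitochondrial ATP synthase, was the member called of 20 oxidative phosphorylation genes. It was at 1732, 1419 and 1066 CPM late and 2861, 2842 and 2168 CPM early (-0.90 ± 0.17, adjusted p = 0.0088), while the list's median was -0.50. Uqcrc2, a subunit of respiratory complex III, was at 271, 260.5 and 231 CPM late and 424, 427 and 286 CPM early, without overlap but short of the threshold (adjusted p = 0.103). Sqle, the squalene epoxidase of sterol synthesis, was at 4.29, 6.62 and 4.04 CPM late and 19.8, 25.1 and 13.1 CPM early (-1.95 ± 0.37, adjusted p = 0.010), and the next sterol enzyme by p-value, Cyp51, at 13.8, 21.1 and 25.1 and 53.6, 69.3 and 31.3 CPM (adjusted p = 0.0636). The other 17 of the 19 sterol and fatty acid synthesis genes did not pass either, and their list's median was -0.20. Atp5b lost its call without late library 2 (adjusted p = 0.0506) and Sqle without late library 3 or early library 2 (adjusted p 0.0516 to 0.0558) or with the macrophage covariate (adjusted p = 0.152).

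**Figure D3:**
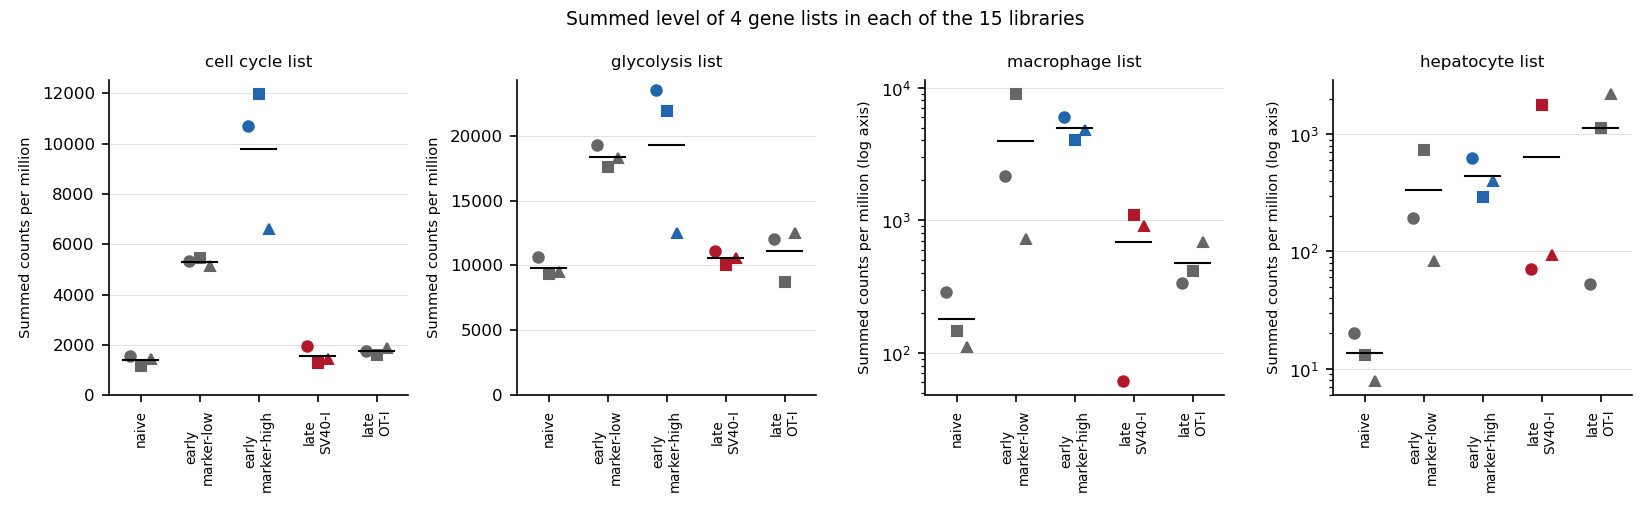
Summed CPM of the cell cycle, glycolysis, macrophage and hepatocyte lists in each of the 15 libraries by group (circle, square and triangle for libraries 1, 2 and 3; the bar is the mean), on linear axes from 0 for the first 2 lists and log axes for the others. In the cell cycle and glycolysis lists the late libraries lie in or near the range of naive and OT-I cells, and early library 3 (blue triangle) lies below the other early libraries; the macrophage list is higher in all 3 early marker-high libraries than in all 3 late ones.

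Genes of naive and memory cells were lower late, though chiefly against 2 of the 3 early libraries. Of 18 such genes, 8 fell and none rose, with a median log2 fold change of -2.46, where 3.57% of all genes were called lower. The late libraries lay below all early libraries for 5 of the 18, against 15% of all genes. Tcf7, which encodes TCF1, was at 2.26, 2.44 and 1.01 CPM late and 94.3, 71 and 1.57 CPM early (-4.87 ± 0.96, adjusted p = 0.0119). Slamf6, a surface receptor found with TCF1 in the renewing subset, was at 0.893, 4.13 and 2.49 CPM late and 146, 140.2 and 4.04 CPM early (-5.26 ± 0.97, adjusted p = 0.00834). In both genes early library 3 held a value inside the late range, so the groups overlapped. Lef1, a partner of TCF1, was at 1.51, 0.331 and 2.84 CPM late and 42, 48.7 and 3.04 CPM early (-4.33 ± 0.85, adjusted p = 0.0118), with library 3 just above the highest late library.

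Other members of the list called lower were Ccr7, Id3, Myb and Dapl1. Ccr7, the lymph node homing receptor, was at 1.14, 13.3 and 8.17 CPM late and 205, 112 and 16.8 CPM early (-3.88 ± 0.83, adjusted p = 0.0177). Id3, an inhibitor of E proteins, was at 2.85, 6.49 and 10.5 CPM late and 80.4, 62.7 and 21.1 CPM early (-3.05 ± 0.53, adjusted p = 0.00557). Both had every late library below every early one, with early library 3 the lowest early value. Myb, a transcription factor of renewing cells, was at 0.0248, 0 and 0.0215 CPM late and 5.23, 4.43 and 0.206 CPM early (-7.57 ± 1.61, adjusted p = 0.0146). Dapl1 also fell, and was at 0.0993, 0.294 and 0.0645 CPM late and 33.1, 23.6 and 0.129 CPM early. Il7r, the interleukin 7 receptor gene, was near 0 in both groups (0, 0.0735 and 0.129 CPM late, 0.201, 0.101 and 0 CPM early) and at a mean of 102 CPM in naive cells. Cd27 was at 618, 399 and 349 CPM late and 689.6, 699 and 534 CPM early (adjusted p = 0.311).

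Early marker-high cells held the second lowest level of Tcf7 among the 5 groups, above the late cells. Mean Tcf7 was 1276 CPM in naive cells, 592 in early marker-low cells, 334 in late OT-I cells, 55.6 in early marker-high cells and 1.9 in the late cells. Against the early marker-low cells the late cells were lower in Tcf7 (-8.28, adjusted p = 7.51e-04), Lef1 (-7.53, adjusted p = 6.45e-04) and Slamf6 (-7.35, adjusted p = 0.00121). The count of 8 was 10 without early library 3, 3 without late library 3 and 0 both in a fit of the 6 libraries and with the macrophage covariate.

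**Figure D4:**
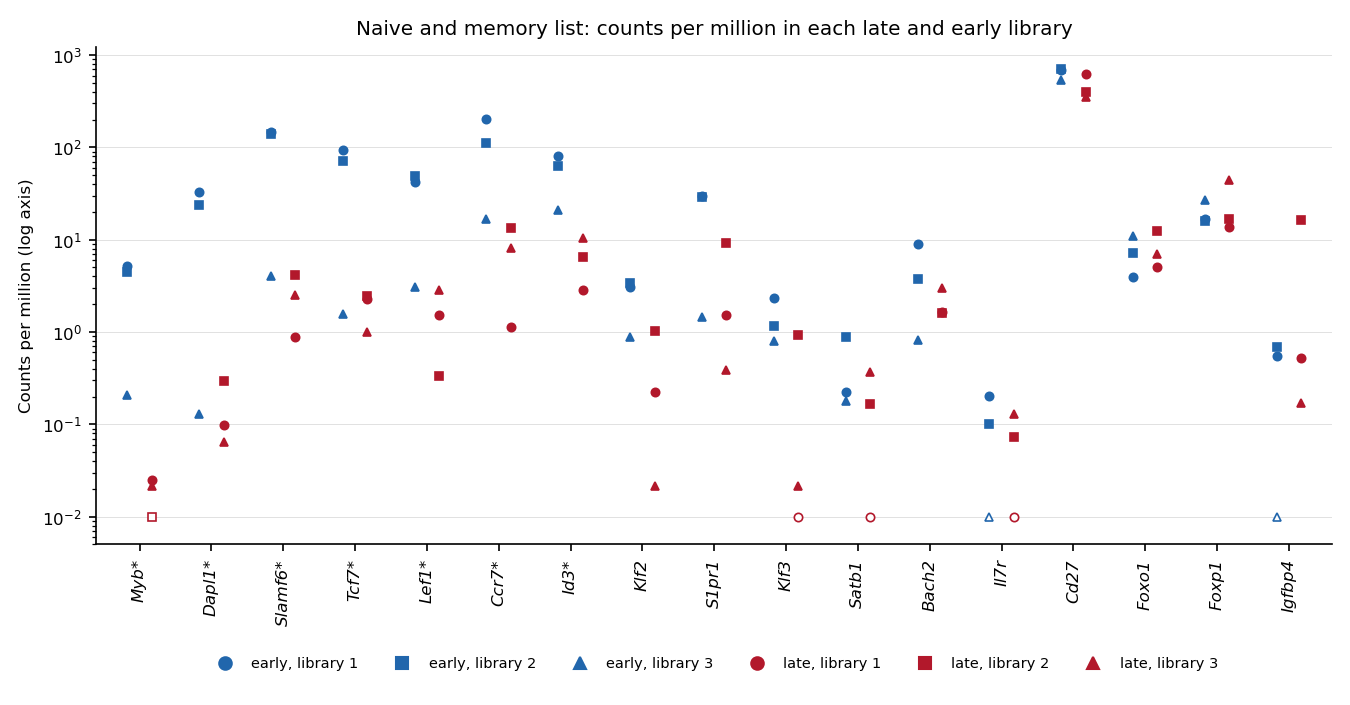
CPM (log axis) of 17 of the 18 naive and memory genes in each late (red) and early (blue) library, ordered by log2 fold change; an asterisk marks an adjusted p under 0.05 and an open symbol a count of 0, drawn at the bottom. For Tcf7, Slamf6 and Dapl1 early library 3 (blue triangle) lies among the late libraries while early libraries 1 and 2 lie far above them.

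Neither Tox nor the genes of the 3 sorted markers passed the test between late and early cells. Since the early cells were sorted on those 3 proteins, the values of their genes are a description. Tox, which encodes the nuclear factor TOX, was at 702, 875 and 988 CPM late and 358, 571 and 731 CPM early, with overlapping groups (0.63 ± 0.34, adjusted p = 0.305; 95% interval -0.11 to 1.37). Pdcd1, which encodes PD1, was at 3528, 3133 and 5470 CPM late and 2342, 2204 and 3399 CPM early (0.61 ± 0.35, adjusted p = 0.33; interval -0.15 to 1.37). Lag3 was at 120.2, 55.3 and 50.6 CPM late and 47.7, 36.2 and 30.9 CPM early (0.98 ± 0.42, adjusted p = 0.20; interval 0.07 to 1.89), without overlap. Entpd1, which encodes CD39, was at 379, 440.3 and 508 CPM late and 175, 206 and 397 CPM early (0.77 ± 0.50, adjusted p = 0.385; interval -0.30 to 1.85). The intervals, which are not adjusted for the number of genes, reach from near 0 to more than a log2 unit above it, so they do not show equal levels. Under the 19 alternatives the adjusted p of Tox ran from 0.138 to 0.642 and its log2 fold change from 0.39 to 1.09.

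Tox was higher late than in the early marker-low cells. Mean Tox was 93.7 CPM in early marker-low cells and 855 CPM in the late cells (3.19, adjusted p = 3.40e-04), with 102 CPM in naive and 24.6 CPM in late OT-I cells. For the sorted markers, mean Pdcd1 was 522 CPM in early marker-low cells, 2648 in early marker-high cells and 4043 in the late cells. Mean Entpd1 was 36.1, 259 and 442 CPM in the same order.

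Among 14 other inhibitory receptors, 3 fell and none rose (median 0.34), where 3.57% of all genes were called lower. Lair1, a collagen-binding inhibitory receptor, was at 1.79, 5.7 and 3.87 CPM late and 46.8, 39.2 and 49 CPM early (-3.57 ± 0.51, adjusted p = 0.00164), without overlap. Btla, a ligand of the TNF receptor HVEM, was at 0.968, 1.05 and 1.18 CPM late and 17.4, 13 and 1.93 CPM early (-3.33 ± 0.66, adjusted p = 0.0119), and Cd200 at 12.5, 16.7 and 13.3 and 180.3, 130.4 and 7.47 CPM (-2.90 ± 0.76, adjusted p = 0.045). For Btla and Cd200 the early level was carried by libraries 1 and 2, and library 3 of Cd200 lay below every late library. Tigit was at 271, 245 and 323 CPM late and 114, 149.6 and 314 CPM early, and Havcr2, which encodes TIM3, at 39.8, 102 and 64.8 and 42.5, 94.3 and 50.8 CPM; neither passed (adjusted p = 0.43 and 0.957). Ctla4 was at 38.4, 25.9 and 27.6 CPM late and 106, 104 and 37 CPM early (adjusted p = 0.108). Vsir, which encodes VISTA, was at 1007, 1144 and 1121 CPM late and 658, 518 and 853 CPM early without overlap (adjusted p = 0.088). Without early library 3, 4 of the 14 were called higher and 4 lower, and without any other 1 library 1 or 2 were called lower. Btla lost its call without late library 2, late library 3 or early library 1 (adjusted p 0.0521 to 0.0539) and with the macrophage covariate (adjusted p = 0.11).

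Of 20 transcription factors linked to TOX and exhaustion, 1 fell and none rose (median 0.31), where 3.57% of all genes were called lower. Nr4a1, an orphan nuclear receptor induced by receptor signals, was at 14.3, 31 and 36.9 CPM late and 271, 173 and 112 CPM early (-2.76 ± 0.46, adjusted p = 0.00453), without overlap, and its mean was 997 CPM in early marker-low cells. Its relative Nr4a2 was at 44.4, 18.8 and 18.4 CPM late and 18, 11.7 and 14.2 CPM early (adjusted p = 0.529). Egr1, an immediate early factor, was at 47, 15.4 and 9.44 CPM late and 7.74, 9.23 and 7.73 CPM early (adjusted p = 0.0781). Id2, an inhibitor of E proteins that effector cells express, was at 642, 1055 and 1156 CPM late and 346, 476 and 447 CPM early (adjusted p = 0.0825), also without overlap. The call of Nr4a1 was lost with the macrophage covariate (adjusted p = 0.109).

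**Figure D5:**
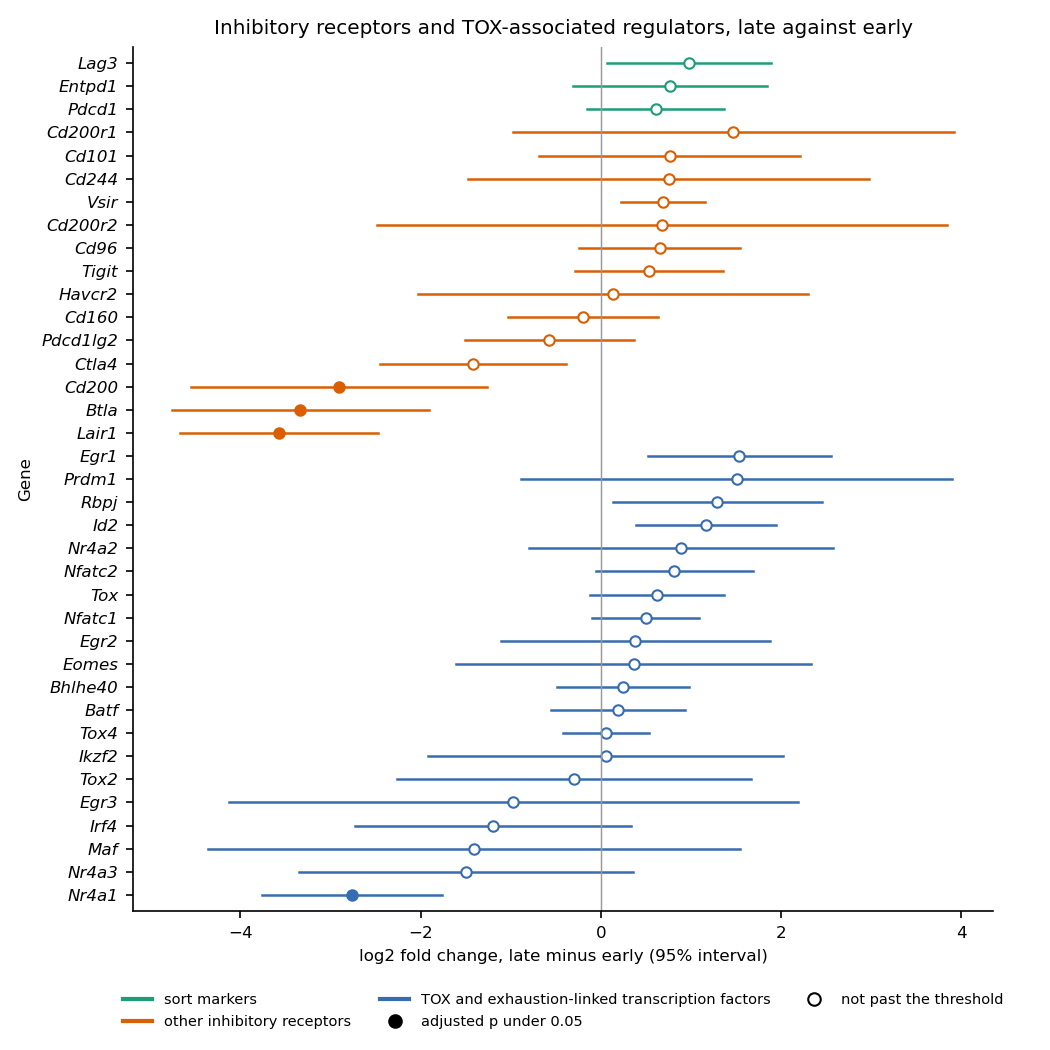
Log2 fold change, late minus early, with its 95% interval for the 3 sort markers, 14 other inhibitory receptors and 20 transcription factors; filled points mark an adjusted p under 0.05. Most intervals span 0, and the 4 filled points, Lair1, Btla, Cd200 and Nr4a1, lie below 0.

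Cd3e, Cd8a and the 2 kinase genes of the first signalling steps of the T cell receptor were higher late. Of 13 T cell identity genes, 4 rose and none fell (median 0.66); 1.76% of all genes were called higher, and the late libraries lay above all early ones for 8 of the 13, against 12.4% of all genes. Cd3e, a signalling chain of the receptor, rose from 2632 ± 155 CPM early to 6637 ± 959.7 CPM late (SD, n = 3 each; 1.33 ± 0.18, adjusted p = 0.00141, 2.52-fold). Zap70, the kinase that binds the receptor's phosphorylated chains, was at 714, 525 and 413 CPM late and 328, 289 and 304 CPM early (0.84 ± 0.18, adjusted p = 0.0182). Lck, the kinase that starts the signal, was at 6987, 4607 and 4784 CPM late and 3603, 3066 and 3474 CPM early (0.69 ± 0.18, adjusted p = 0.043), and the coreceptor gene Cd8a at 5292, 4179 and 3746 and 2605, 2526 and 3249 CPM (0.66 ± 0.17, adjusted p = 0.043). Trac, the receptor alpha constant region, was at 7567, 8410 and 9005 CPM late and 4052, 4520 and 4582 CPM early, without overlap (adjusted p = 0.0574). The late libraries also had the lower macrophage sums given above. Among them, library 1 had the lowest sum, with the highest Zap70, Lck and Cd8a but the lowest Cd3e and Trac. The part of macrophage transcripts in these rises was not tested. With the macrophage covariate 1 of the 13 was called higher (Zap70, adjusted p = 0.292, was not), and so was 1 without early library 1, early library 2 or late library 1, in whose absence Zap70 lost its call (adjusted p 0.0599 to 0.0958). In the fit of the 6 libraries, and without late library 2 or late library 3, 2 were called higher. The count was also 2 with upper-quartile scaling or without a filter on low counts. It was 5 with a stricter filter and 7 by DESeq2.

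Of 14 cytotoxic genes tested, 1 rose and none fell (median 0.23), where 1.76% of all genes were called higher. The late libraries lay above all early ones for 6 of the 14 and below them for 1, against 12.4% and 15% of all genes. With a stricter filter on low counts 3 of 14 were called higher. DESeq2 called 5 of 17 higher and 1 lower. Ctsw, a cathepsin of cytotoxic lymphocytes, was at 2414, 1982 and 2193 CPM late and 1086, 928 and 1090 CPM early (1.09 ± 0.23, adjusted p = 0.0158). It lost its call without late library 1, late library 3, early library 1 or early library 2 (adjusted p 0.0511 to 0.0879) and with the macrophage covariate (adjusted p = 0.203). No granzyme gene passed: Gzmk was at 313, 700.5 and 898 CPM late and 159, 191 and 108 CPM early (adjusted p = 0.0559), while Gzmb was at 935, 1588 and 1593 and 2324, 3344 and 3808 CPM (adjusted p = 0.0945), each without overlap and on opposite sides. Prf1, the perforin gene, was at 1480, 1128 and 1238 CPM late and 830.5, 959 and 411 CPM early (adjusted p = 0.0978). Klrb1c, the gene of the NK1.1 receptor, was the member called of 13 effector and NK-type receptors. It was at 264, 126 and 162 CPM late and 21.8, 10.9 and 38.3 CPM early (2.96 ± 0.43, adjusted p = 0.00202, 7.76-fold higher), and its mean was 459 CPM in late OT-I cells and 1.73 CPM in naive cells. Its adjusted p was 0.065 with the macrophage covariate. The NK cell marker Ncr1 was at 0, 0.404 and 2.08 CPM late and 22.1, 14 and 2.96 CPM early, so the 2 genes lay on opposite sides. Fcgr2b, the inhibitory Fc receptor, was at 0.0496, 11.3 and 4.34 CPM late and 67.8, 49.7 and 70.7 CPM early (adjusted p = 0.0871).

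Feedback and costimulatory genes gave single calls, where 1.76% of all genes were called higher and 3.57% lower. Socs1, a suppressor of cytokine signalling, was the member that rose of 22 signalling and feedback genes (7.79, 5.15 and 4.17 CPM late, 1.03, 1.52 and 2.09 CPM early; 1.88 ± 0.48, adjusted p = 0.0388), and its call was lost under 12 of the 19 alternatives, among them each fit without 1 library other than early library 3 (adjusted p 0.0658 to 0.175). Sla2, an adaptor that lowers receptor signalling, was at 555, 626 and 927 CPM late and 367, 361 and 564 CPM early (adjusted p = 0.090). Tnfrsf25, the death receptor DR3, fell from a very low level (0, 0 and 0.043 CPM late, 1.18, 0.835 and 0 CPM early; adjusted p = 0.0236), with a mean of 44.7 CPM in naive cells, and lost its call in the same fits (adjusted p 0.0602 to 0.0957) and with the macrophage covariate (adjusted p = 0.119). Cd40lg had no count in any late library and was at 3.29, 6.53 and 0 CPM early, at least 155-fold lower late when 3 counts over all 3 late libraries are taken as the floor, and did not pass (adjusted p = 0.053). None of 11 tissue residency genes passed; Zfp683, which encodes HOBIT, was at 171, 78.8 and 59.3 CPM late and 16.1, 17.8 and 42.5 CPM early (adjusted p = 0.0586), and the repressor gene Hic1 at 42, 28.6 and 14.1 and 9.4, 9.01 and 9.58 CPM (adjusted p = 0.105).

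None of the 14 cytokine genes passed the test, where 1.76% of all genes were called higher and 3.57% lower. Ifng, the interferon gamma gene, was at 27.3, 31.6 and 22.6 CPM late and 113, 130.4 and 17 CPM early (adjusted p = 0.0944), with the late libraries below early libraries 1 and 2 and above library 3. Without early library 3, 2 cytokine genes were called higher and 2 lower. Tnfsf8, the CD30 ligand gene, was at 52.3, 114 and 99.5 CPM late and 17.5, 18 and 57.9 CPM early (adjusted p = 0.0721). Of 7 chemokine genes, Ccl9 (3.55, 22.3 and 13.2 CPM late, 141, 74.3 and 111 CPM early; -3.06 ± 0.70, adjusted p = 0.0245) and Cxcl10 (4.44, 2.7 and 3.33 CPM late, 16.9, 15.3 and 51.8 CPM early; -3.0 ± 0.67, adjusted p = 0.0211) fell, both without overlap. Both are also made by myeloid cells, whose markers were higher in the same early libraries, and the part of such cells in these values was not tested. With the macrophage covariate the log2 fold change was -1.21 for Ccl9 (adjusted p = 0.255) and -2.58 for Cxcl10 (adjusted p = 0.245). Cxcl10 lost its call without any 1 late library (adjusted p 0.0528 to 0.0907), and Ccl9 without late library 1, late library 3, early library 1 or early library 2 (adjusted p 0.0522 to 0.0969). Ccl5, which T cells themselves make, was at 3309, 4612 and 6982 CPM late and 437, 509 and 2149 CPM early (adjusted p = 0.0616). Xcl1 was at 42.2, 24.3 and 10.9 CPM late and 319, 198 and 2.86 CPM early, with early library 3 below every late library (adjusted p = 0.142).

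Gpr183, an oxysterol receptor that guides lymphocytes in lymphoid tissue, was the member that fell of 14 chemokine and egress receptors, where 3.57% of all genes were called lower. It was at 1.24, 4.76 and 4.77 CPM late and 54.5, 51.5 and 15 CPM early (-3.48 ± 0.55, adjusted p = 0.0030), against a mean of 222 CPM in early marker-low cells. Its adjusted p was 0.058 in the fit of the 6 libraries and 0.0718 with the macrophage covariate. Cxcr4 was at 0.124, 2.17 and 2.28 CPM late and 11, 8.93 and 6.05 CPM early (adjusted p = 0.0684), and Cxcr6, a receptor of liver-resident T cells, at 1807, 3515 and 2538 and 414, 654 and 2246 CPM (adjusted p = 0.151). Early library 3 of Cxcr6 lay within the late range while the other 2 early libraries lay below it.

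A group of interferon-stimulated genes was lower late. Of 19 tested, 4 fell and none rose (median -1.57), where 3.57% of all genes were called lower. The late libraries lay below all early libraries for 10 of the 19, against 15% of all genes. Oasl2, an oligoadenylate synthetase-like gene, was at 3.45, 5.9 and 4.36 CPM late and 56.3, 69 and 151 CPM early (-4.33 ± 0.80, adjusted p = 0.0080). Usp18, which removes ISG15 from proteins and dampens the interferon receptor, was at 30.4, 35.3 and 32.4 CPM late and 64.6, 64.3 and 179 CPM early (-1.65 ± 0.34, adjusted p = 0.0142). Ifit3 and Ifi27l2a also fell, by 2.53 and 2.24 on the log2 scale. Early library 3 held the highest value of all 6 libraries in each of these 4 genes, so here it lay on the far side of the other early libraries from the late ones. The median was -0.65 without early library 3, with 3 genes called, and -0.41 with the macrophage covariate, with none called. Without late library 1 or late library 3, and in the fit of the 6 libraries, 1 of the 19 was called lower; without either of those late libraries Usp18 lost its call (adjusted p 0.0536 to 0.0622).

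Of 15 genes that respond to cell stress and tissue dissociation, Fos (2.11, 23.1 and 7.61 CPM late, 202, 123 and 25.3 CPM early; -3.42 ± 0.90, adjusted p = 0.0461) and Ier3 (0.323, 1.87 and 0.537 CPM late, 12.2, 9.56 and 8.7 CPM early; -3.46 ± 0.56, adjusted p = 0.00367) fell. Both are immediate early genes, and the other immediate early factors Junb and Jund did not pass (adjusted p = 0.807 and 0.853). Of all genes, 3.57% were called lower. Fos lost its call without late library 1, late library 3, early library 1 or early library 2 (adjusted p 0.106 to 0.176). The adjusted p with the macrophage covariate was 0.357 for Fos and 0.0849 for Ier3, and in the fit of the 6 libraries 0.135 and 0.062. Of 14 BCL2 family genes, Bcl2a1a fell (0.199, 0.625 and 0.451 CPM late, 3.87, 2.88 and 4.95 CPM early; -3.19 ± 0.68, adjusted p = 0.0165); its near-identical copies Bcl2a1b and Bcl2a1d had fold changes of 0.0011 and 0.06, and reads can be split between copies. Bcl2a1a lost its call without late library 1, late library 3 or early library 1 (adjusted p 0.0577 to 0.0707) and with the macrophage covariate (adjusted p = 0.265). Bcl2, the survival factor, was at 95.9, 161 and 169 CPM late and 22.8, 32.1 and 92.3 CPM early (adjusted p = 0.101), without overlap. None of 11 genes of TGF-beta signalling passed. Smad3 was at 2.04, 1.21 and 3.52 CPM late and 7.11, 7.06 and 4.48 CPM early (adjusted p = 0.0566), and Tgfbr3 had no count late and 1.51, 0.278 and 1.0 CPM early, at least 43.8-fold lower late against the same floor (adjusted p = 0.0522).

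The largest rises among called genes without overlap lay outside the lists, apart from Klrb1c. Csdc2, an RNA-binding cold shock domain gene, was at 82.3, 193 and 111 CPM late and 4.5, 1.42 and 19.3 CPM early (3.94 ± 0.96, adjusted p = 0.0404), and at a mean of 0.751 CPM in early marker-low cells and 0 in naive cells. Peg13, an imprinted noncoding RNA within the gene Trappc9, from whose reads it cannot be told apart without strand, was at 87.2, 102 and 112 CPM late and 6.91, 2.81 and 12.9 CPM early (3.73 ± 0.57, adjusted p = 0.00249). Phf1, a Polycomb-associated protein gene, was at 267, 182 and 160.2 CPM late and 30.6, 18 and 61.5 CPM early (2.47 ± 0.41, adjusted p = 0.00453). Nckap5l, Zkscan1, Ptpn21 and Ifitm10 rose by 2.41, 2.54, 2.32 and 2.29 on the log2 scale. Of the 5 groups, early marker-high cells had the lowest mean of Peg13, Phf1, Nckap5l, Zkscan1, Ptpn21 and Ifitm10. Mean Nckap5l was 28.1 CPM late, 29.9 in early marker-low, 28.4 in late OT-I and 62.3 in naive cells, against 5.29 in the early marker-high cells. Mean Ifitm10 was 44.3, 41.7, 115 and 17 CPM in the same order, against 9.08. The calls of Csdc2 and Ptpn21 were each lost under 11 of the 19 alternatives, among them each fit without 1 library other than early library 3 (adjusted p 0.0592 to 0.169 for Csdc2 and adjusted p 0.0571 to 0.175 for Ptpn21). Zkscan1 lost its call without late library 2, late library 3, early library 1 or early library 2 (adjusted p 0.0607 to 0.12), and Ifitm10 without early library 2 (adjusted p = 0.0886). With the macrophage covariate the adjusted p was 0.0718 for Phf1, 0.112 for Zkscan1 and 0.196 for Ifitm10, and in the fit of the 6 libraries it was 0.0514 for Phf1 and 0.0935 for Ifitm10.

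The largest falls held cell cycle genes beside genes of other kinds. Tlr1, a Toll-like receptor gene, was at 0, 0.0735 and 0.043 CPM late and 16.8, 20 and 9.17 CPM early (-8.44 ± 0.87, adjusted p = 2.54e-04), and at a mean of 45.2 CPM in naive cells. Rap1gap2, a regulator of the GTPase RAP1, was at 0.174, 0.0551 and 0 CPM late and 19, 8.73 and 17.7 CPM early (-7.65 ± 1.01, adjusted p = 9.70e-04), with 129 CPM in late OT-I cells. Ly6c2, a surface protein of memory and effector CD8 T cells and of monocytes, was at 2.23, 19.2 and 17.1 CPM late and 399, 534 and 302 CPM early (-5.0 ± 0.76, adjusted p = 0.00256), with means of 2283 CPM in early marker-low and 3230 CPM in late OT-I cells. Its family member Ly6i fell as well (0.0248, 1.49 and 0.967 CPM late, 40.6, 20 and 53.7 CPM early; -5.51 ± 1.15, adjusted p = 0.0155), and was at 14.9 CPM in early marker-low and 0.803 CPM in late OT-I cells. Reads of this gene family can be shared between near-identical members. With the macrophage covariate the adjusted p was 0.0659 for Ly6c2 and 0.205 for Ly6i, and without late library 3 it was 0.0683 for Ly6i.

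The other 4 were genes of proliferation. Pclaf, a partner of PCNA, was at 3.0, 5.92 and 6.62 CPM late and 165, 275 and 84.2 CPM early (-5.07 ± 0.69, adjusted p = 0.00126), and Mybl2, a transcription factor of the cell cycle, at 1.61, 0 and 0.881 and 44.4, 40.9 and 14.3 CPM (-5.33 ± 1.26, adjusted p = 0.0291). The centromere protein gene Cenpi was at 0.223, 0 and 0.344 CPM late and 11.2, 18.9 and 12.2 CPM early (-6.22 ± 1.38, adjusted p = 0.0209), and Ska1, which couples kinetochores to microtubules, at 0.918, 0.239 and 1.16 and 24.7, 38.6 and 18.2 CPM (-5.13 ± 0.96, adjusted p = 0.00852). In all 4 the late libraries stayed below every early library, and early library 3 held the lowest early value of 3 of them. Mybl2 lost its call without late library 3, early library 1 or early library 2 (adjusted p 0.0936 to 0.11), and Cenpi without these or late library 1 (adjusted p 0.0529 to 0.0713). Both also lost it with the macrophage covariate (adjusted p = 0.143 and 0.152), with log2 fold changes of -6.11 and -6.02 in that fit.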

How the data were processed

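Per the labels' protocols, complementary DNA from sorted cells was amplified (SMART-Seq v4) and sequenced as paired ends. The authors deposited whole-number counts of read pairs per gene, made with featureCounts 1.6.2 on GENCODE M17 genes without a strand option, per the file headers. STAR, FastQC, DESeq2 and the builds GRCm38 and mm10 are also named, per the submitters' processing notes. Without strand, a gene and an overlapping or antisense partner cannot be told apart, and reads of near-identical copies (Bcl2a1a, Cd200r2, Cd244, Ly6i, Ly6c2, Klrc1, Klre1, Oas1a) are uncertain.

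One model of all 15 libraries from mice was made with edgeR 4.0.16 (R 4.3.3; TMM scaling, filterByExpr, robust quasi-likelihood F test, 1 coefficient per group), which kept 16404 of 53656 genes, and the late minus early marker-high contrast was adjusted by Benjamini-Hochberg over all of them. The 4 cultured libraries were not used. The test was also run on simulated counts with the same spread for every gene and no library that stood apart. The libraries here were less even, so that run does not vouch for the calls. Libraries of 38830547 to 54195918 counts put 3 counts at 0.0551 to 0.0773 CPM. Nothing in the labels says that libraries came from separate animals, so each p-value sets a difference against the spread of these libraries only, which may be technical. No pair of libraries agreed within sampling noise.

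The libraries compared, the gene lists and their members were chosen with earlier results of these data known. Named by rule were Tox, Pdcd1, Lag3 and Entpd1, the 2 members of each T cell list with the smallest p, and the 8 largest rises and 8 largest falls among called genes without overlap and with a mean of at least 10 CPM in the higher group, leaving out receptor variable segments and clone-named loci. Every other gene named was chosen from the lists after its values were seen. Alternatives were other scalings, filters, DESeq2 1.42.0, fits of only the 6 libraries, a replicate block and each library left out. Chosen after seeing the data were covariates for macrophage and hepatocyte transcripts and a fit without late library 2 and early library 3. That fit kept late library 1, the most distant of the 6 by root-mean-square difference. Some list members are counted in their lists and not reported here.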

Additional observations from a re-analysis of the deposited data

How the results depend on the processing

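The main counts were 289 genes higher and 585 lower late. A fit of only the 6 libraries called 61 higher and 264 lower, of which 45 and 218 were shared with the main calls. DESeq2 called 992 higher and 1273 lower and shared 289 and 581. Without a filter on low counts 171 genes were higher. With the macrophage covariate, chosen after seeing the data, 37 were higher and 117 lower, and without late library 2 and early library 3 together 567 were higher. Leaving out 1 library gave 50 to 772 higher and 261 to 897 lower: the fewest without early library 2 (50 and 261) or early library 1 (59 and 271), the most without early library 3 (772 and 897), and 167 and 388, 142 and 339, and 97 and 271 without late libraries 1, 2 and 3. The share of called genes that were higher was 33.1%, and was 42.1% with upper-quartile scaling, whose median over all genes was 0.11, 43.8% by DESeq2, 46.3% without early library 3 and 18.8% in the fit of the 6 libraries. Against early marker-low cells the main counts were 886 and 1132, and leaving out 1 late library gave 495 to 667 higher and 651 to 814 lower, the fewest without late library 3.

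Deviations from the group mean were little correlated between late and early libraries of the same number (r = 0.0456, -0.0163 and 0.0984). For pairs with different numbers r was -0.0925 to 0.0349. With 3 libraries a group, these values cannot show whether the numbers pair libraries. With the replicate number as a block, 312 genes were called higher and 543 lower in the 15 libraries, and 0 higher and 17 lower in the 6 libraries, where 2990 genes had an unadjusted p under 0.05 in edgeR; all 17 were among the main calls. In the 6 libraries the block leaves 2 residual degrees of freedom.

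Of 63 genes named by rule, 44 were called, no fold change reversed under the 19 alternatives, and Uhrf1 was the gene that kept its call under each. Calls were lost for 25 genes in the fit of the 6 libraries, 42 with the block in it and 32 with the macrophage covariate. Both fits of the 6 libraries tested 61 of the 63 genes, without Tnfrsf25 and Cd40lg. Genes near 1 count, such as Myb and Tnfrsf25 late, have fold changes that depend on the prior count.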

Other observations

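Genes that mark cells other than CD8 T cells also moved between late and early libraries. Foxp3, the regulator of regulatory T cells, had no count in any late library and was at 2.36, 3.04 and 0.489 CPM early, at least 92.9-fold lower late when 3 counts over all 3 late libraries are taken as the floor (adjusted p = 0.0176 in edgeR). Il2ra, the high-affinity interleukin 2 receptor chain that regulatory and freshly activated T cells share, was at 1.22, 0.57 and 0.752 CPM late and 14.2, 23.3 and 2.83 CPM early (-3.99 ± 0.97, adjusted p = 0.0329). Cd4 was at 19.4, 1.12 and 9.44 CPM late and 14.7, 6.4 and 14.8 CPM early. Early library 3 held the lowest early value of both Foxp3 and Il2ra.

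Itgax, the integrin of dendritic cells that some activated CD8 T cells also carry, was at 0.0496, 3.84 and 2.67 CPM late and 40.8, 25.9 and 23.9 CPM early (-3.77 ± 0.85, adjusted p = 0.0236). Pecam1, an adhesion molecule of endothelium and of some leukocytes, was at 21.5, 18.9 and 18.4 CPM late and 69.2, 71.4 and 25.3 CPM early (-1.50 ± 0.33, adjusted p = 0.0187). In the opposite direction Ighd, the immunoglobulin delta heavy chain gene, was at 129, 149 and 83.9 CPM late and 30.5, 18.2 and 50.9 CPM early (1.86 ± 0.45, adjusted p = 0.0315). Most of the B cell list went the other way: of 9 genes tested, 7 had a log2 fold change below 0 and 2 above (median -0.41). That list summed to 1854, 1609 and 1729 CPM late and 2475, 1825 and 1642 CPM early. These genes were chosen after their values were seen, and the cells they came from were not tested. Mki67, a common marker of dividing cells, was near 1 CPM in both groups although most other cell cycle genes fell; the reason was not tested.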
